A study of Mus musculus with 8 samples.

Results

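The bone morphogenetic proteins (BMPs) and their receptors were followed in Pdgfra-lo cells of the mouse, stromal cells with little of the receptor Pdgfra. The genes were the ligands Bmp2, Bmp3, Bmp4, Bmp5, Bmp6 and Bmp7 and the receptors Bmpr1a, Bmpr1b and Bmpr2, taken by symbol, and all 9 were found among the 24930 genes of the expression table. In 3 libraries the stromal cells had been grown without enteroids (mesenchyme only). Another 3 came from stromal cells cultured for 7 days in a basement membrane gel with duodenal enteroids of control genotype (wild-type coculture). The last 2 came from stromal cells cultured in the same way with enteroids carrying β-cateninGOF, a gain-of-function form of the transcriptional effector of WNT signalling (BcatGOF coculture). The medium of the cocultures lacked EGF, R-SPONDIN1 and NOGGIN, the last of which is itself a BMP antagonist. Live GFP-positive cells were sorted before RNA extraction. Treatment of cocultures with SB525334, an inhibitor of the TGF-β type I receptor, is described for the series, but no label of these 8 libraries names it. Mouse strain, age, and the alleles behind the GFP and the β-catenin change are not given in the sources used here, nor is it stated that the 3 or 2 libraries of a group came from separate animals. The p-values therefore measure the spread between these libraries, which may in part be technical.

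BMPs are secreted dimers of the TGF-β superfamily. A dimer brings together type I receptors, such as Bmpr1a and Bmpr1b, and a type II receptor, such as Bmpr2, and the type I kinase then phosphorylates the transcription factors Smad1, Smad5 and Smad9. In the intestine the BMP signal is strongest towards the villus and restrains stem cell renewal in the crypt. Stromal cells with high Pdgfra near the crypt-villus junction are known as a source of BMP ligands, and stromal cells with low Pdgfra around the crypt base as a source of the antagonist Grem1.

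Levels are given in FPKM, fragments normalized to transcript length and library size, so genes can be compared per length. The summed FPKM of a library ran from 438585 to 598384, and its depth, estimated from the steps between low values relative to mesenchyme only replicate 1, from 0.798 to 1. The tables hold no read counts per library, so the absolute depth is unknown and no counting intervals can be given. All 10 markers of Pdgfra-low stroma and fibroblasts were detected at 1 FPKM or more in all 8 libraries, with Pdgfra itself at 52.4 to 134 FPKM. All 7 endothelial markers were under 1 FPKM in all 8 libraries, as were 6 of 9 leukocyte markers, Ptprc among them. The other 3 leukocyte markers were detected in all 8 libraries, with Lyz2 at 14 to 82.2, Cd14 at 5.88 to 70 and Cd68 at 1.72 to 6.76 FPKM, and the leukocyte sum was highest in BcatGOF coculture 2, at 133.5 FPKM. Of 8 markers of Pdgfra-high telocytes, 6 or 7 reached 1 FPKM in each library, with a sum of 174.5 to 318.8 FPKM. In stroma alone F3 was at 190 to 265.8 FPKM and made up most of that sum. Foxl1 was at 0.214 to 0.22 and Sox6 at 0 to 0.0105 FPKM there. The list did not move together: against stroma alone, 4 of its 7 tested genes had a positive and 3 a negative log2 fold change in each coculture. The summed level of 15 epithelial markers was 5.93 to 8.07 FPKM in stroma alone. It was 17.9, 8.83 and 129 FPKM in wild-type cocultures 1, 2 and 3, and 31.3 and 124 FPKM in BcatGOF cocultures 1 and 2. In bulk RNA fewer cells of a type and less RNA per cell cannot be told apart.

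The libraries did not fall simply into their 3 groups. BcatGOF replicate 1 and mesenchyme only replicate 1 were the closest of all 28 pairs of libraries, with a median absolute difference of 0.114 on the log2 scale over the 12927 tested genes. The 2 BcatGOF libraries differed from each other by 0.407, the second largest of the 28 distances. Libraries of the same replicate number deviated together, so values within a number are given beside the group means. What a number marks is not stated in the labels.

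The promoters of 4 members are shown because these genes differ in how steady their RNA was: Bmpr1a and Bmpr2 varied little over the libraries, Bmp4 was lower in every coculture, and Bmpr1b was far lower in a pair of cocultures than elsewhere. Each run holds the 300 bases from 250 before to 50 after the annotated start in RefSeq on GRCm38.p6, and the capitals mark the palindrome GGCGCC, a motif bound by Smad1 and Smad5.
Bmpr1a, chr14:34502497-34502796, minus strand: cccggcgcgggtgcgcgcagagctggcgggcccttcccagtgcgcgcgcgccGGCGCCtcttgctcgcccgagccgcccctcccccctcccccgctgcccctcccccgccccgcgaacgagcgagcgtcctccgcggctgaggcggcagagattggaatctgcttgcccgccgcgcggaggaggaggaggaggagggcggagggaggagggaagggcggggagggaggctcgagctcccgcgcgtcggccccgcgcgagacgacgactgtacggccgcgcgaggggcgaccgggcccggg
Bmpr2, chr1:59764029-59764328, plus strand: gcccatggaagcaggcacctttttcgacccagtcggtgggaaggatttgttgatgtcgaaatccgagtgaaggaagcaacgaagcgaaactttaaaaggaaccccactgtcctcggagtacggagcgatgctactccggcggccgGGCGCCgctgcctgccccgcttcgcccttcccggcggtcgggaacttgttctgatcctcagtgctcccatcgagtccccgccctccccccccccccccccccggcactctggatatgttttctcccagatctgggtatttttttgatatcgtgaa
Bmp4, chr14:46390620-46390919, minus strand: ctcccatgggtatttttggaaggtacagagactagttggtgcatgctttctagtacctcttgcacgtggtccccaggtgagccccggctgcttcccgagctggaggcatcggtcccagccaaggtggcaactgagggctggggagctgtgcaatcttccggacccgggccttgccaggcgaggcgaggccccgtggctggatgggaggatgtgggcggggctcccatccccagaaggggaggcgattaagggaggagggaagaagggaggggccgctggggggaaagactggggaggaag
Bmpr1b, chr3:141982215-141982514, minus strand: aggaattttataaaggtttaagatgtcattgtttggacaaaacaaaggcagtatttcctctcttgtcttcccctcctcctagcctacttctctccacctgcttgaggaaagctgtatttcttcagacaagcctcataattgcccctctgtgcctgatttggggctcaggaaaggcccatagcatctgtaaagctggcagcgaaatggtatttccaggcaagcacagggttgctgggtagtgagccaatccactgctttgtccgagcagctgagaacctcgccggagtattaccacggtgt
RefSeq promoter entries matched 6 of the 9 members, with 8 promoters in all, and Bmp2, Bmp3 and Bmp7 had none. The Bmpr1a promoter holds 48 CpG dinucleotides and is 79.3% G and C, and that of Bmpr2 holds 23 and is 59.3% G and C. For Bmp4 the values are 12 and 64%, and for the Bmpr1b promoter printed they are 5 and 48.3%, against medians of 7 and 52.7% over 32851 promoters. Bmpr1b has further promoter entries that are not printed, which hold 6 CpG each and are 53% and 55.7% G and C. Of the members not printed, Bmp6, whose RNA was low and scattered, has 27 and 69.3%, and Bmp5 has 4 and 43.3%. A link between these values and the level or steadiness of the RNA was not tested. The palindrome GGCGCC reads the same on both strands. It was found 198 bases before the start of Bmpr1a and 105 before that of Bmpr2, and in 11.9% of the 32851 promoters searched. Another 4 motifs were searched on both strands: the Gli motif TGGGTGGTC (in 0.253% of the same promoters), the Smad box GTCTAGAC (0.213%), the Tcf and Lef motif CTTTGAT (3.73%) and the hypoxia motif TACGTG (3.23%). None of these 4 was present in the 8 promoters of members, which says only that these letters are not in these windows.

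Among the ligands, Bmp2 and Bmp4 carried nearly all of the measured BMP RNA. Bmp2 was the most abundant of the 9 genes by its mean over the 8 libraries, at 93.4 FPKM, followed by Bmpr1a at 37.2, Bmpr2 at 29.6 and Bmp4 at 20.6 FPKM. Bmpr1a exceeded Bmpr2, and Bmpr2 exceeded Bmp4, in 8 of 8 libraries, and Bmp2 exceeded Bmpr1a in 6 of 8. Bmp6 (1.6 FPKM) and Bmpr1b (1.54 FPKM) came next and could not be ordered, each being the higher in 4 libraries. Bmp5, Bmp7 and Bmp3 had means of 0.211, 0.196 and 0.139 FPKM and reached 1 FPKM in 0 of 8 libraries. They therefore did not pass the filter of at least 1 FPKM in at least 2 libraries, and 6 of the 9 members were tested.

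**Figure D1:**
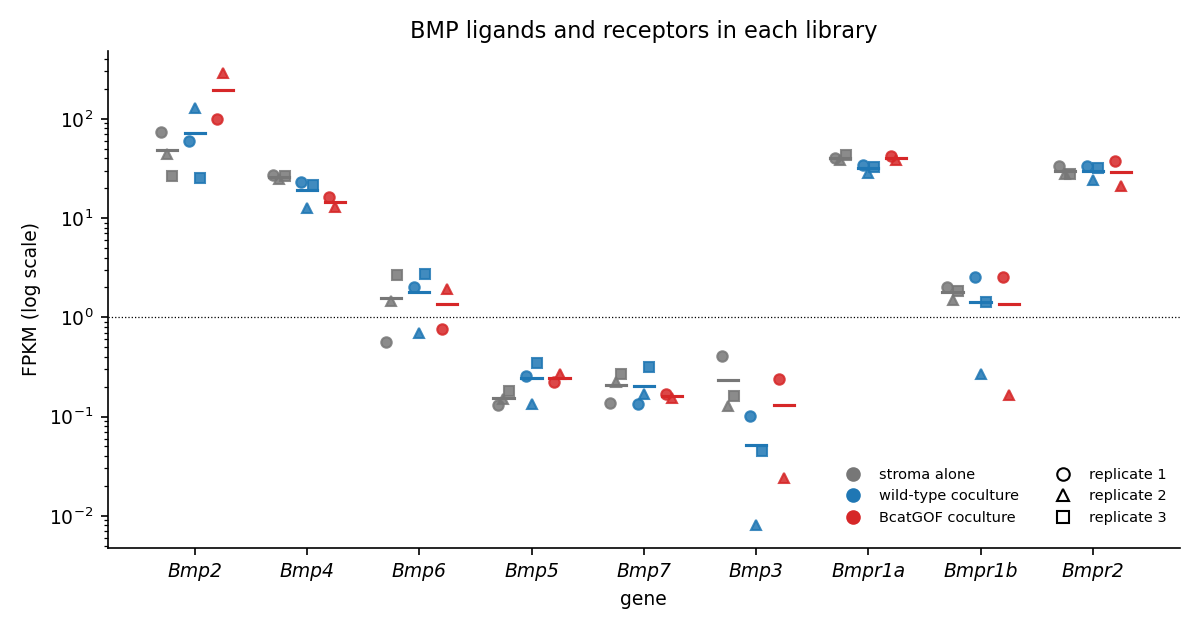
FPKM on a log axis of the 9 BMP genes in each of the 8 libraries, with colour for the group, symbol for the replicate number and a short line at the group mean. The dotted line marks 1 FPKM, below which Bmp3, Bmp5 and Bmp7 lie in every library. Bmpr1a and Bmpr2 form tight clusters, while the replicate 2 triangles of the 2 cocultures lie apart for Bmp2 and Bmpr1b.

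Bmp2, a ligand that in the adult intestine is known from differentiated epithelium as well as stroma, was the member that varied most in absolute level. It was at 74.4, 44.6 and 26.7 FPKM in mesenchyme only replicates 1, 2 and 3, and at 60.4, 129 and 25.2 FPKM in the wild-type cocultures. In BcatGOF cocultures 1 and 2 it was at 100.4 and 287 FPKM. Both BcatGOF libraries lay above all libraries of stroma alone, whereas those of the wild-type coculture spanned them on both sides. The means were 48.5 ± 24.1 (SD, n = 3), 71.5 ± 52.7 (n = 3) and 194 ± 132 FPKM (n = 2).

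Within a number, Bmp2 in wild-type coculture was 0.812, 2.89 and 0.946 times its level in stroma alone for replicates 1, 2 and 3, so it was higher in 1 of 3 pairs. In BcatGOF coculture the ratios were 1.35 and 6.43, higher in 2 of 2. Wild-type coculture 3, which had the highest epithelial sum at 129 FPKM, had the lowest Bmp2 of all 8 libraries. BcatGOF coculture 2, with an epithelial sum of 124 FPKM, had the highest. These 2 cocultures also differ in the genotype of their enteroids, and the epithelial part in Bmp2 was not tested.

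Bmp4, the classical mesenchymal BMP ligand of the gut, was at 27.1, 25 and 26.4 FPKM in stroma alone. Wild-type cocultures 1, 2 and 3 had 23.2, 12.6 and 21.5 FPKM, and BcatGOF cocultures 1 and 2 had 16.2 and 12.9 FPKM. All 5 cocultures lay below all 3 libraries of stroma alone, and BcatGOF and wild-type cocultures overlapped. The group means were 26.2 ± 1.1 (SD, n = 3) in stroma alone, 19.1 ± 5.69 (n = 3) in wild-type and 14.5 ± 2.34 FPKM (n = 2) in BcatGOF coculture. Relative to stroma alone of the same number, Bmp4 was at 0.857, 0.505 and 0.812 in wild-type cocultures 1, 2 and 3 and at 0.596 and 0.515 in BcatGOF cocultures 1 and 2. It was thus lower in 5 of 5 pairs. How many of all tested genes are split in this way was not computed. Of all tested genes, 12.0% had no overlap between wild-type coculture and stroma alone, and 16.3% none between BcatGOF coculture and stroma alone.

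Bmp6, a ligand best known from the liver, where it takes part in iron control, was low and scattered. It was at 0.559, 1.48 and 2.64 FPKM in stroma alone, 2.01, 0.693 and 2.75 FPKM in wild-type coculture, and 0.759 and 1.94 FPKM in BcatGOF coculture. The 3 groups overlapped, and 5 of 8 libraries reached 1 FPKM. Bmp5 and Bmp7, ligands known from stromal cells with high Pdgfra, were both at trace levels. Bmp5 was at 0.132, 0.15 and 0.18 FPKM in stroma alone, 0.256, 0.134 and 0.347 FPKM in wild-type coculture and 0.224 and 0.269 FPKM in BcatGOF coculture. Both BcatGOF values were above all of stroma alone and inside the range of the wild-type coculture. Bmp7 was between 0.134 and 0.315 FPKM in all 8 libraries, with overlapping groups.

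Bmp3, a divergent member that is known to oppose other BMPs, was at 0.403, 0.128 and 0.163 FPKM in stroma alone and at 0.1, 0.00804 and 0.0455 FPKM in wild-type cocultures 1, 2 and 3. In BcatGOF cocultures 1 and 2 it was at 0.24 and 0.0243 FPKM. The wild-type cocultures lay below stroma alone, and within a number Bmp3 was lower in 5 of 5 cocultures. At such levels a library holds few fragments of the gene, and these differences were not tested. For genes under the filter, such as Bmp3 and Bmp5, the share without overlap between groups or lower in every coculture was not computed.

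**Figure D2:**
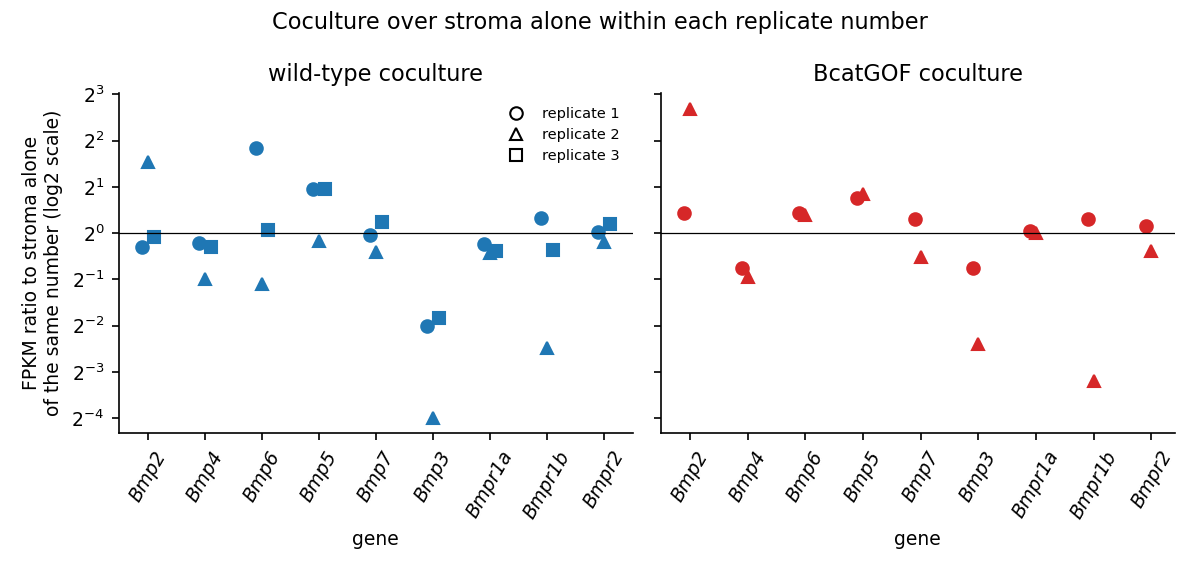
FPKM in coculture over FPKM in stroma alone of the same replicate number, on a log2 axis, for the 9 genes in wild-type coculture (left) and BcatGOF coculture (right). Points are single libraries and the horizontal line marks a ratio of 1. Bmp4 and Bmp3 lie under the line in all 5 cocultures, and in the replicate 2 pairs Bmp2 is at 2.89 and 6.43 and Bmpr1b at 0.179 and 0.109.

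The make-up of the ligand pool differed between libraries. Against stroma alone of the same number, Bmp2 was higher and Bmp4 lower in wild-type coculture 2 and both BcatGOF cocultures, and both were lower in wild-type cocultures 1 and 3. The summed FPKM of the 6 ligands was 103, 71.6 and 56.3 in stroma alone, 86.1, 142 and 50.1 in wild-type coculture, and 118 and 302 in BcatGOF coculture. Bmp2 supplied 72.4%, 62.3% and 47.3% of that sum in stroma alone and 70.1%, 90.4% and 50.3% in wild-type cocultures 1, 2 and 3. In BcatGOF cocultures 1 and 2 it supplied 85.1% and 95%. The share of Bmp4 was 26.4% to 46.9% in stroma alone, 27%, 8.85% and 42.8% in wild-type coculture, and 13.7% and 4.26% in BcatGOF coculture.

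The ratio of Bmp2 to Bmp4 therefore ran from 1.01 to 2.74 in stroma alone. It was 2.6, 10.2 and 1.17 in the wild-type cocultures and 6.21 and 22.3 in the BcatGOF cocultures. Both BcatGOF libraries and wild-type coculture 2 lay above the range of stroma alone, and the remaining wild-type cocultures lay inside it. Bmp3, Bmp5 and Bmp7 together made up 0.148% to 1.41% of the ligand sum in the 8 libraries.

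**Figure D3:**
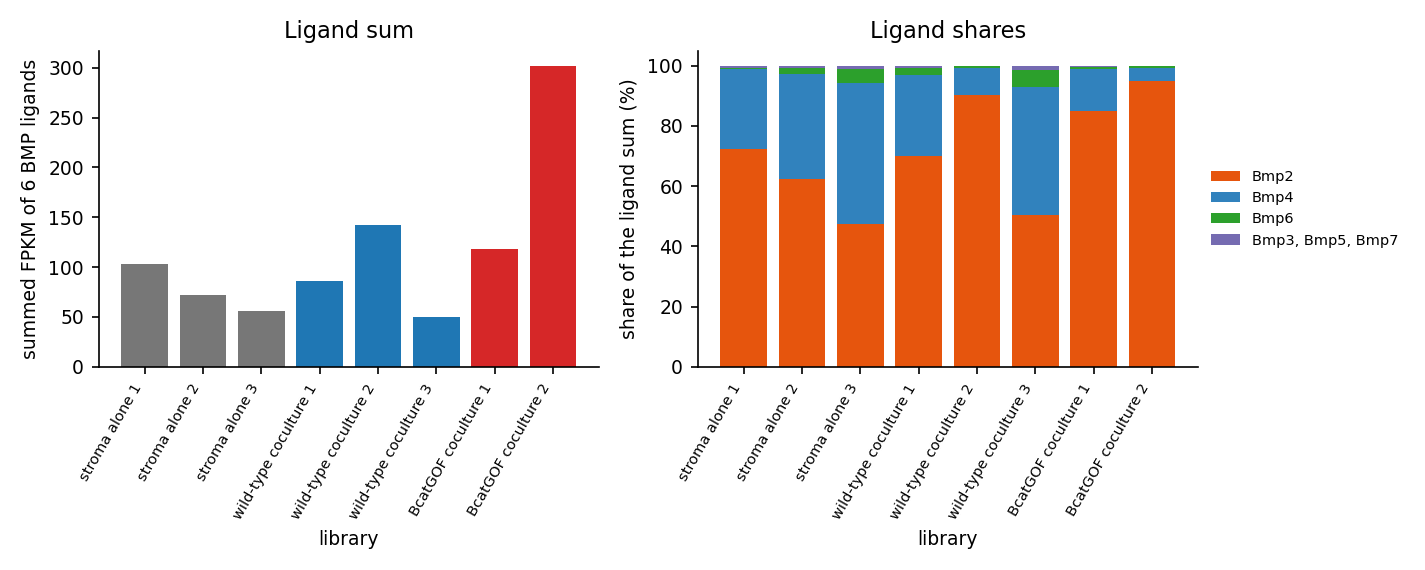
Summed FPKM of the 6 BMP ligands per library (left, bars from 0) and the percent of that sum held by Bmp2, Bmp4, Bmp6 and the other 3 ligands (right). The sum is highest in BcatGOF coculture 2, at 302 FPKM, and the Bmp2 share is highest there, at 95%, and lowest in stroma alone 3, at 47.3%.

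Among the receptors, Bmpr1a, a type I receptor, was steady. Other type I receptors, Acvr1 and Acvrl1, had means of 37 and 47.7 FPKM over the 8 libraries, against 37.2 for Bmpr1a. Bmpr1a was at 40.3, 38.4 and 42.8 FPKM in stroma alone and at 34.4, 28.4 and 32.9 FPKM in the wild-type cocultures. In the BcatGOF cocultures it was at 41.7 and 38.4 FPKM. All wild-type cocultures lay below all libraries of the other groups, and the BcatGOF values overlapped those of stroma alone. The means were 40.5 ± 2.18 (SD, n = 3), 31.9 ± 3.13 (n = 3) and 40.1 ± 2.33 FPKM (n = 2). Against stroma alone of the same number the ratios were 0.854, 0.74 and 0.769 in wild-type coculture and 1.04 and 1 in BcatGOF coculture.

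Bmpr2, the type II receptor that pairs with either type I receptor, was at 33.4, 27.8 and 27.7 FPKM in stroma alone. It was at 33.8, 24.2 and 31.7 FPKM in wild-type coculture and at 37.2 and 21.2 FPKM in BcatGOF coculture. The groups overlapped, and the lowest values were those of the cocultures numbered 2. The summed level of the 3 receptors was 52.9 to 81.4 FPKM in the 8 libraries, a narrower range than the 50.1 to 302 FPKM of the ligands, and Bmpr1a made up 48.6% to 64.3% of it.

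Bmpr1b, a type I receptor known for roles in cartilage and the ovary, was a minor species at 0.276% to 3.63% of the receptor sum. It was at 2.04, 1.51 and 1.83 FPKM in stroma alone. The wild-type cocultures had 2.57, 0.27 and 1.42 FPKM and the BcatGOF cocultures 2.53 and 0.165 FPKM. Replicates 1 of both cocultures lay above stroma alone and replicates 2 far below it, so the groups overlapped. Within a number the ratios to stroma alone were 1.26, 0.179 and 0.776 in wild-type cocultures 1, 2 and 3 and 1.24 and 0.109 in BcatGOF cocultures 1 and 2.

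The same 2 libraries, wild-type coculture 2 and BcatGOF coculture 2, had the highest Bmp2 and the lowest Bmp4, Bmpr1b and Bmpr2 of all 8. On the first principal component of all tested genes, with 40.3% of the variance, they scored 25.4 and 63.6. The other 6 libraries scored -38.9 to 0.945, so the 2 stand apart beyond the BMP genes. The share of all tested genes with their extreme values in these 2 libraries was not computed. Their mesenchyme-only partner, replicate 2, lay within the range of the other mesenchyme-only libraries for Bmp2 and Bmpr2 and was the lowest of the 3 for Bmp4 (25 FPKM) and Bmpr1b (1.51 FPKM). They also had the lowest sums of 9 smooth muscle and pericyte markers, at 357 and 120.3 FPKM against 860.4 to 1890 FPKM in the other 6 libraries, with Acta2, Tagln and Actg2 making up most of each sum. Acta2 was at 86.5 and 22.2 FPKM there, Tagln at 115 and 38.3 and Actg2 at 56 and 27.7. Other genes of the list went the other way in wild-type coculture 2, which had the highest Rgs5 (71.9 FPKM) and Cspg4 (5.6 FPKM) of all 8 libraries and, at 6.78 FPKM, more Des than any library but wild-type coculture 3. The part of these marker genes' cells in the BMP values was not tested.

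Wild-type coculture was compared with stroma alone to ask what normal epithelium does to the stromal BMP genes. None of the 6 tested members passed at an adjusted p under 0.05 in limma, where 0.00774% of the 12927 tested genes did, and 1 of 6, Bmpr1a, had an unadjusted p under 0.05, against 4.90% of all genes. The log2 fold change of Bmpr1a was -0.34 (SE 0.13, 95% interval -0.65 to -0.025, adjusted p = 0.984, limma), lower in 3 of 3 libraries. That of Bmp4 was -0.48 (SE 0.23, interval -1 to 0.049, adjusted p = 1, limma), also lower in 3 of 3, and was -0.22 without wild-type replicate 2 and -0.64 without wild-type replicate 1. Bmp4 and Bmpr1a were the 2 of 6 tested members whose groups did not overlap, which held for 12.0% of all tested genes. Bmp2 had a log2 fold change of 0.38 (SE 0.66), Bmp6 of 0.15 (SE 0.41), Bmpr1b of -0.32 (SE 0.48) and Bmpr2 of 0.0049 (SE 0.23), all with adjusted p = 1 in limma. The interval of Bmp2, -1.15 to 1.91, leaves room for large changes in either direction, while that of Bmpr2 was -0.53 to 0.54. Without wild-type replicate 2 the value of Bmp2 turned to -0.19 and that of Bmpr1b to 0.079.

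BcatGOF coculture was compared with stroma alone to ask how epithelium with active β-catenin changes these genes. Again none of 6 passed at an adjusted p under 0.05, against 0.00774% of all tested genes. Bmp2 and Bmp4 had an unadjusted p under 0.05, which 5.50% of all tested genes had. Bmp2 had a log2 fold change of 1.9 (SE 0.74, interval 0.19 to 3.62, adjusted p = 0.894, limma), higher in 2 of 2 libraries. It was 2.66 without BcatGOF replicate 1 and 1.15 without BcatGOF replicate 2, each a fit with 1 BcatGOF library. Bmp4 had one of -0.81 (SE 0.25, interval -1.4 to -0.23, adjusted p = 0.894, limma), lower in 2 of 2 libraries, and of -0.97 and -0.66 without BcatGOF replicates 1 and 2. For both genes the 2 groups did not overlap, as for 16.3% of all tested genes.

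The other tested members had values near 0 or intervals on both sides of it. Bmp6 was at -0.087 (SE 0.46), Bmpr1a at -0.014 (SE 0.15), Bmpr1b at -0.46 (SE 0.54) and Bmpr2 at -0.07 (SE 0.26), with adjusted p of 0.968 to 0.998 in limma. The interval of Bmpr1a, -0.36 to 0.34, was the narrowest of the 6. For Bmpr1b the value was -1.26 without BcatGOF replicate 1 and 0.34 without BcatGOF replicate 2, and for Bmpr2 it was -0.46 and 0.32.

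BcatGOF was set against wild-type coculture to ask what the β-catenin change adds. None of 6 members passed and none had an unadjusted p under 0.05 in limma, against 0% and 2.89% of all tested genes. Bmpr1a was 0.32 higher on the log2 scale with BcatGOF enteroids (SE 0.15, interval -0.025 to 0.67, adjusted p = 1, limma) and was the 1 member of 6 without overlap, where 14.0% of all tested genes had none. Bmp2 was 1.53 higher (SE 0.74, interval -0.19 to 3.24) and was 1.66 and 2.23 times as high in replicates 1 and 2, although the groups overlapped. The Bmp2 value was 2.28 and 0.77 without BcatGOF replicates 1 and 2 and 0.94 without wild-type replicate 3, and 0.18 without both BcatGOF replicate 2 and wild-type replicate 3, a setting chosen after seeing the data. Bmp4 was 0.34 lower (-0.34, SE 0.25) and was 0.696 and 1.02 times as high in the 2 numbers. Its value was -0.60 without wild-type replicate 2, -0.18 without wild-type replicate 1 or BcatGOF replicate 2, and -0.081 without both BcatGOF replicate 2 and wild-type replicate 3. Bmp6, Bmpr1b and Bmpr2 were at -0.23 (SE 0.46), -0.13 (SE 0.54) and -0.075 (SE 0.26). This comparison shares its libraries with the others, so the values are not independent of them.

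**Figure D4:**
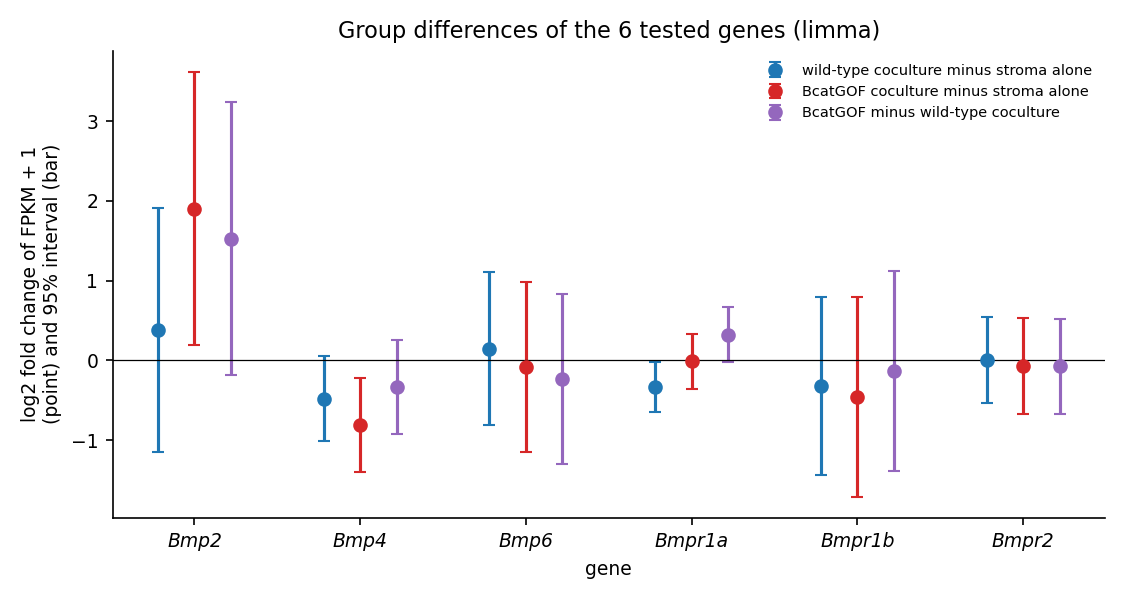
Log2 fold change of FPKM + 1 (points) with 95% intervals from limma (bars) for the 6 tested genes and the 3 comparisons of 3, 3 and 2 libraries. The intervals of Bmp2 and Bmp4 for BcatGOF coculture against stroma alone and that of Bmpr1a for wild-type coculture do not include 0, and no adjusted p was under 0.05.

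The authors' deposited table of BcatGOF coculture and mesenchyme only holds 2184 genes, all with an adjusted p of at most 0.015, and lists 3 of the 9 members. In the authors' deposited table Bmp2 has a log2 fold change of 2.35 (SE 0.57, adjusted p = 0.000522) at a mean normalized count of 7251. For Bmp4 the authors' deposited table gives -1.17 (SE 0.3, adjusted p = 0.00121) at a mean normalized count of 742. Bmpr1b stands in the authors' deposited table at -3.41 (SE 0.7, adjusted p = 3.11e-05) and a mean normalized count of 128.

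The listed Bmpr1b value differs from the FPKM of the same group. The log2 ratio of its mean FPKM in both BcatGOF cocultures to that in stroma alone was -0.41. It was 0.5 for BcatGOF replicate 1 alone and -3.44 for replicate 2 alone, the latter close to the -3.41 of the authors' deposited table. For Bmp2 the ratios were 1.05 for replicate 1 and 2.56 for replicate 2, and for Bmp4 they were -0.69 and -1.02. Of the 2184 genes, 2045 were above 0 FPKM in all 8 libraries. The sign in the authors' deposited table matched that of BcatGOF replicate 2 for 2045 of 2045 and that of replicate 1 for 1220 of 2045 (59.7%). The median absolute difference from the authors' deposited table was 0.199 for replicate 2, 1.51 for replicate 1 and 0.794 for the mean of both, on the log2 scale. Which libraries entered the authors' fit is not stated in the sources used here. How many BcatGOF libraries stand behind the authors' adjusted p-values is therefore not known.

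**Figure D5:**
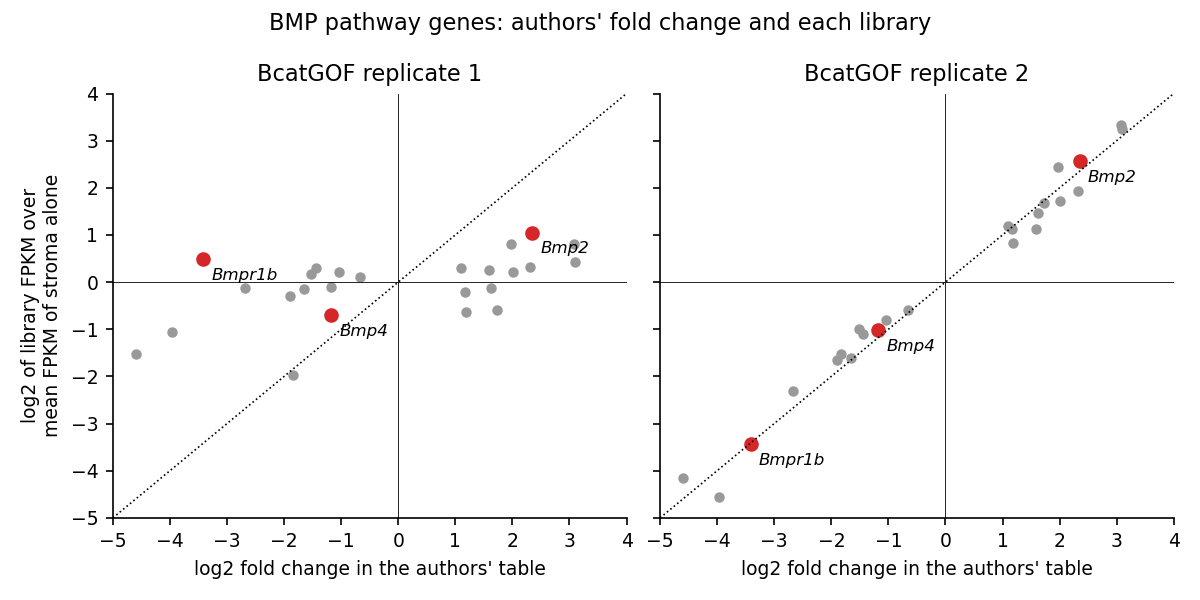
Log2 fold change in the authors' deposited table (x axis) against the log2 ratio of FPKM in BcatGOF replicate 1 (left) or 2 (right) to the mean of stroma alone (y axis), for 25 BMP pathway genes, with the 3 members named in red. The dotted line marks equal values. Replicate 2 follows the line, with Bmpr1b at -3.44 and -3.41, whereas replicate 1 has Bmpr1b at 0.5. Chrdl1, listed at 0 in replicate 2, is not drawn.

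For the rest of the pathway, no gene of the 6 other lists passed over all genes in any of the 3 comparisons (limma, adjusted p under 0.05). Against stroma alone, the median log2 fold change over all tested genes was 0.019 for wild-type and 0.014 for BcatGOF coculture. Where all cocultures are said below to lie on the same side of stroma alone, the share of all tested genes that do so was not computed. Groups did not overlap for 12.0% of all tested genes in wild-type and for 16.3% in BcatGOF coculture, each against stroma alone.

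Of 12 other BMP and GDF ligands, 4 were tested, and all 4 had negative values in both cocultures, with medians of -0.55 and -0.75. Gdf10, which is close in sequence to Bmp3, was at 35.5, 41.3 and 50.2 FPKM in stroma alone, 20, 14.6 and 41.9 FPKM in wild-type coculture and 38.6 and 8.57 FPKM in BcatGOF coculture. BcatGOF replicate 2 was the lowest and replicate 1 lay among stroma alone. Gdf6 was at 2.53, 11.2 and 8.14 FPKM in stroma alone and at 2.54 and 0.41 FPKM in BcatGOF coculture (log2 fold change -1.71, SE 0.78, adjusted p = 0.894, limma). Gdf15, a stress-induced and distant family member, was at -0.4 (SE 0.38) in wild-type and -0.37 (SE 0.42) in BcatGOF coculture on the same scale.

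Of 9 other receptors and co-receptors, 8 were tested, 5 with a negative value in wild-type and 6 in BcatGOF coculture. The type I receptor Acvr1 was at 31.3, 27.9 and 25.7 FPKM in stroma alone and at 34.6 and 64.7 FPKM in BcatGOF coculture (log2 fold change 0.73, SE 0.25). The wild-type cocultures had 38.6, 36.9 and 36.6 FPKM of Acvr1, so all 5 cocultures lay above stroma alone. Rgmb, a BMP co-receptor, was at 26, 16.6 and 26.2 FPKM in stroma alone and at 13.3, 12.9 and 13.3 FPKM in wild-type coculture (-0.73, SE 0.25), below it in 3 of 3. Eng and Acvrl1, known from endothelium, were the most abundant here at 35.1 to 112 and 30.2 to 73.5 FPKM, although endothelial markers were under 1 FPKM. The type II receptor Acvr2a had -0.72 (SE 0.44) for BcatGOF against wild-type coculture.

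All 6 Smad genes on the list were tested, 4 with a positive value in wild-type and 3 in BcatGOF coculture. For Smad4, the shared partner, and Smad5 the log2 fold change was 0.04 (SE 0.18) and 0.12 (SE 0.19) in wild-type and -0.096 (SE 0.2) and -0.22 (SE 0.21) in BcatGOF coculture. The inhibitory Smad7 was at 10, 6.81 and 8.87 FPKM in stroma alone, at 16.2, 16.3 and 16.1 FPKM in wild-type coculture and at 10.8 and 32.9 FPKM in BcatGOF coculture. All 5 cocultures lay above stroma alone, with a log2 fold change of 0.86 (SE 0.35) in wild-type and 1.07 (SE 0.39) in BcatGOF coculture. Smad9 had 0.59 (SE 0.31) for BcatGOF against wild-type coculture.

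Of 17 antagonists and extracellular modulators, 14 were tested, 8 with a positive value in wild-type and 7 in BcatGOF coculture. Grem1, which binds Bmp2 and Bmp4, was at 1307, 1000 and 1343 FPKM in stroma alone, 982.4, 708 and 683.5 FPKM in wild-type and 1376 and 607.6 FPKM in BcatGOF coculture. It exceeded the ligand sum in all 8 libraries. For Fstl1 the log2 fold change was 0.63 (SE 0.21) in wild-type and 0.35 (SE 0.24) in BcatGOF coculture, and for Fstl3 0.92 (SE 0.28) and 0.69 (SE 0.31). Fst, an activin and BMP antagonist, was at 6.42, 8 and 2.82 FPKM in stroma alone and at 7.7 and 54.4 FPKM in BcatGOF coculture (1.79, SE 0.77). Bmp1, named a BMP but a metalloprotease that cuts procollagen and the antagonist Chrd, was at 129 to 219 FPKM and had -0.46 (SE 0.2) for BcatGOF against wild-type coculture.

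All 13 genes on the list of BMP targets were tested, 7 with a positive value in wild-type and 12 in BcatGOF coculture, with medians of 0.065 and 0.51. Smad6, Smad7 and Smad9 are also on the Smad list. Within a number, 3 of 13 targets (Smad7, Msx1 and Msx2) were higher than in stroma alone in BcatGOF replicate 1 and 11 of 13 in replicate 2. Id1, a direct target, was at 64.3, 128 and 34.4 FPKM in stroma alone, 56.4, 112 and 37.3 FPKM in wild-type coculture and 50.2 and 243 FPKM in BcatGOF coculture. Id3 was at 222 and 588 FPKM in BcatGOF coculture against 245, 482 and 322 FPKM in stroma alone. For both genes BcatGOF replicate 2 was the highest of all 8 libraries, as for Bmp2, and replicate 1 was under its mesenchyme-only partner. Id4 had 0.97 (SE 0.45) for BcatGOF against wild-type coculture. Tcf21, a mesenchymal transcription factor on the list, was at 16.6, 44.6 and 59.9 FPKM in stroma alone, at 10.2, 11.1 and 17.8 FPKM in wild-type and at 10.2 and 14.1 FPKM in BcatGOF coculture.

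The convertases that cleave BMP precursors were all 4 tested, with 3 positive values and 1 negative in each coculture. Pcsk5 was at 20.1, 30.1 and 14.7 FPKM in stroma alone, 68.7, 114 and 139 FPKM in wild-type coculture and 38.1 and 218 FPKM in BcatGOF coculture. All 5 cocultures lay above stroma alone, with a log2 fold change of 2.25 in wild-type (SE 0.61, adjusted p = 0.804, limma) and of 2.09 in BcatGOF coculture (SE 0.68, adjusted p = 0.894, limma). Furin was at 58.4, 41.2 and 50.8 FPKM in stroma alone and at 60.6 to 70.5 FPKM in the cocultures, above it in 5 of 5. Pcsk7 had 0.14 (SE 0.14) for BcatGOF against wild-type coculture.

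Some genes ran closely with a member over the 8 libraries by Pearson's r of log2(FPKM + 1), given as a description since the libraries share groups and numbers. Nearest to Bmp2 were Cemip (r = 0.983), a hyaluronan-degrading protein at 3.88 to 64.9 FPKM, Mafg (r = 0.98) and Trim11 (r = 0.975). Bmp4 ran with Rnpc3 (r = 0.938), Tfg (r = 0.937) and Ecm2 (r = 0.931), and Bmp6 with Rian (r = 0.953), Phykpl (r = 0.952) and Fkbp14 (r = 0.951). For Bmpr1a the nearest were Zfp953 (r = 0.952), Rp2 (r = 0.945) and 1300002E11Rik (r = 0.926). For Bmpr1b they were Map4k3 (r = 0.972), at 10.7 to 35.4 FPKM, Pign (r = 0.966) and Epb41l3 (r = 0.966), and for Bmpr2 Serpinb9b (r = 0.976), Aida (r = 0.975) and Ptprm (r = 0.973). No gene was shared between these lists.

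Gli1, Krt8 and Epcam were also named for every comparison, and no BMP value was tested against them. Gli1, a Hedgehog target, was at 0.113, 0.367 and 0.503 FPKM in stroma alone, at 4.66, 1.92 and 4.01 FPKM in wild-type and at 4.22 and 2.18 FPKM in BcatGOF coculture. It was thus higher in all 5 cocultures, including BcatGOF replicate 1. Krt8 and Epcam are on the list of epithelial markers. Krt8 was at 0.0542 to 0.0848 FPKM in stroma alone and at 3.86, 0.813 and 35.4 FPKM in wild-type coculture. In BcatGOF coculture Krt8 was at 7.27 and 38.5 FPKM. Epcam was at 0 to 0.0581 FPKM in stroma alone and at 0.299, 0.156 and 5.78 FPKM in wild-type coculture. In BcatGOF coculture Epcam was at 1.75 and 5.63 FPKM.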

How the data were processed

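Poly-A RNA of sorted stromal cells was sequenced in 8 libraries, grouped by their titles. The authors deposited FPKM values per gene and library for 24930 genes, and kallisto 0.46.1, DESeq2 1.40.1 and mm9 appear in the submitters' processing notes without their roles. No source used here says how the FPKM were computed. A second deposited table gives the authors' log2 fold changes, their test statistic (a score), p-values and mean normalized counts (a normalized signal) for genes past a threshold.

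The 12927 genes that reached 1 FPKM in 2 or more libraries were tested as log2(FPKM + 1) in limma 3.58.1 (R 4.3.3), with 3 group means over 8 libraries, 5 residual degrees of freedom, trended and robust variances, and Benjamini-Hochberg adjustment over all tested genes at a threshold of 0.05. The added 1 understates fold changes of low genes. The code was tested on simulated data. Same-numbered libraries of different groups had residual correlations of 0.301 to 0.554 (7 pairs) and others of -0.483 to 0.208 (14 pairs). Residuals were taken from group means, so those of the 2 BcatGOF libraries are mirror images. The negative values are thus in part fixed by construction and are not separate evidence. From these values and not from the labels, the numbers were taken as pairing the libraries for the ratios within a number. The limma fit of the main text holds no replicate term, so its SE, intervals and p-values are unpaired. A replicate block was an alternative only. With it as a fixed effect, Bmp2 in BcatGOF coculture against stroma alone had a log2 fold change of 1.43 in place of 1.9. Members, gene lists and tests were chosen with earlier results of these data known. Named were all members, and per list the 2 most abundant genes, the gene of smallest p per comparison and any that passed, with the 3 genes nearest to each member of at least 1 FPKM on average, and Pdgfra, Epcam, Krt8 and Gli1. Any further gene was picked with its values in view. Alternatives were 20 settings. Plots used matplotlib 3.10.9 in python 3.11.15. Promoters are RefSeq entries on GRCm38.p6, and no coordinates of the mm9 build were used. The entries of a chromosome that holds none of the printed promoters were left out before promoters were counted.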

Additional observations from a re-analysis of the deposited data

Results flagged for a closer look

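Bmpr1a differed between the cocultures in direction: within a replicate number it was lower than in stroma alone in 3 of 3 wild-type cocultures and at or above it in 2 of 2 BcatGOF cocultures. The difference itself, BcatGOF minus wild-type coculture, was 0.32 on the log2 scale (SE 0.15, adjusted p = 1, limma), and 1 over all genes is the adjusted value for each of the 12927 tested genes in that comparison. In BcatGOF cocultures 1 and 2 the ratio to stroma alone was 1.04 and 1, so the upward part is within the spread of stroma alone. The value lay between 0.25 and 0.41 over its 20 alternatives.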

How the results depend on the processing

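Over the 18 tested values of members (6 genes in 3 comparisons), 313 of 354 alternative values kept their direction and 41 did not, and 0 passed. Bmp4 and Bmpr1a in wild-type coculture, and Bmp2 and Bmp4 in BcatGOF coculture against stroma alone, kept their sign in all 20 alternatives. Some settings cannot change a log2 fold change, so part of the kept directions was fixed in advance. They are another filter, the 2 groups alone, variances without trend and robust, and leaving out a library of the group not compared. The fixed block also left the wild-type values against stroma alone unchanged. How far depth limits Bmp3, Bmp5 and Bmp7, all under 1 FPKM, cannot be given without read counts.

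With the replicate block as a fixed effect no member's call changed, with an adjusted p (limma) of 0.443 for Bmp4 and 0.363 for Bmpr1a in wild-type coculture and 0.632 for Bmp2 and Bmp4 in BcatGOF coculture. The block gave Bmp6 0.18 and Bmpr1a 0.018 (BcatGOF against stroma alone) and Bmp6 0.036 (BcatGOF against wild type), and as a random effect 0.087 and 0.0064. Genes called in wild-type coculture against stroma alone numbered 1, and 2 and 5 with the block as fixed and random effect, 7 with the 2 groups alone and 0 at a mean of 5 FPKM. For BcatGOF against stroma alone the count was 1, with 6 without a filter and 0 at a mean of 5 FPKM, and for BcatGOF against wild type 0, with 4 without a filter. Leaving out 1 library gave 1 to 9 (7 and 9 without BcatGOF replicates 1 and 2), 1 to 198 (198 without BcatGOF replicate 1, where the lone BcatGOF library is assumed to spread as the others do) and 0 genes.

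Chosen after seeing the data were leaving out both libraries with the highest epithelial sums, and using only numbers 1 and 3. Each leaves BcatGOF replicate 1 as the only BcatGOF library, so only fold changes are given. These settings turned, in wild-type coculture against stroma alone, Bmp6 to -0.097 and Bmpr2 to -0.042 (first), and Bmp2 to -0.19 and Bmpr1b to 0.0039 (second). Quantile normalization turned Bmpr2 to -0.051. In BcatGOF coculture against stroma alone the same settings turned Bmpr1a to 0.044 and 0.0077, Bmpr1b to 0.34 and 0.27, and Bmpr2 to 0.32 and 0.28. Against wild type they turned Bmpr1b to 0.73 and 0.26 and Bmpr2 to 0.36 and 0.18. The cause was not tested.

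Leaving out 1 library, wild-type coculture against stroma alone ranged from -0.19 to 0.97 for Bmp2, -0.17 to 0.48 for Bmp6, -0.67 to 0.079 for Bmpr1b and -0.088 to 0.14 for Bmpr2. BcatGOF coculture against stroma alone ranged from -0.46 to 0.28 for Bmp6, -0.071 to 0.044 for Bmpr1a, -1.26 to 0.34 for Bmpr1b and -0.46 to 0.32 for Bmpr2. BcatGOF against wild-type coculture ranged from 0.77 to 2.28 for Bmp2, -0.60 to -0.18 for Bmp4, -0.60 to 0.13 for Bmp6, -0.93 to 0.67 for Bmpr1b and -0.47 to 0.32 for Bmpr2.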
